A study of Danio rerio with 12 samples.

Results

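The genes described here encode coat proteins, Sec proteins and Golgi tethers of the secretory pathway. They were taken from the deposited gene table by symbol, ignoring case, as every gene whose symbol begins with sec and a digit, with cop and the letter a, b, e, g or z, with tmed and a digit, or with trappc, golg or exoc, and as cog1 to cog8. COP9 signalosome genes, whose symbols begin with cops, were left out. The rule uses no measured value and found 79 of the 31953 genes in the table. A further 13 genes carry such a name only in the reference gene list and not in the symbol column, and they are not counted here. The study compared the transcriptomes of dorsal forerunner cell clusters in zebrafish embryos that lacked the transcription cofactor Vgll4l, or both Yap and Taz, with those of control embryos. All embryos were of the line Tg(sox17:GFP), which marks forerunner cells with GFP, and were injected at the 1-cell stage with morpholinos, antisense oligonucleotides that block an mRNA. They were dissected at 90% epiboly, late in gastrulation. Control embryos received a control morpholino (Control, 4 libraries), Vgll4l-KD embryos a Vgll4l morpholino (4 libraries), and YapTaz-KD embryos morpholinos against Yap1 and Wwtr1, the gene of Taz (4 libraries). Per the study's methods, the total amount of morpholino injected was lower in Vgll4l-KD embryos than in the other groups. Each library was made from amplified cDNA of a single dissected cluster. The GFP marks endoderm as well, and a dissected cluster can carry neighbouring cells.

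Proteins that are to be secreted or placed in a membrane enter the endoplasmic reticulum (ER) through the Sec61 channel. COPII-coated vesicles carry them from the ER to the Golgi, COPI-coated vesicles return escaped proteins and recycling receptors, and p24 proteins, encoded by the tmed genes, serve as cargo receptors in both directions. Tethers then hold vesicles at their target before fusion: TRAPP and the golgins at the Golgi, the COG complex for traffic within the Golgi, and the exocyst at the plasma membrane. Forerunner cells go on to build Kupffer's vesicle, a ciliated epithelium around a lumen, and the secretory pathway delivers apical membrane, matrix and ciliary membrane proteins in epithelia of this kind.

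Libraries held 4487894 to 6148871 assigned reads in control clusters, 8698990 to 11235726 in Vgll4l clusters and 9071323 to 10774775 in Yap/Taz clusters. Values are reads divided by the library's size factor, called normalized counts below, and are listed in the order of the replicate numbers. vgll4l (ENSDARG00000068409) had 6944 ± 266 normalized counts in control clusters (SD, n = 4), 1062 ± 43.9 in Vgll4l clusters and 1606 ± 53.6 in Yap/Taz clusters. yap1 (ENSDARG00000068401) stood at 2250.4 ± 116, 1442 ± 76.5 and 1784 ± 30.5. wwtr1 (ENSDARG00000067719) was listed at 0 in every control cluster, at 2.37 ± 1.23 in Vgll4l clusters and at 8.97 ± 2.05 in Yap/Taz clusters. A morpholino need not lower the mRNA of its target, so these levels do not check the labels. The forerunner markers sox32, sox17 and foxj1a were present in every library, and the summed share of 7 forerunner markers was 1.17 to 1.18% of normalized counts in control clusters, 0.343 to 0.355% in Vgll4l clusters and 0.428 to 0.432% in Yap/Taz clusters. The Nodal antagonist gene dand5, also among the 7, had 2.86 normalized counts in control clusters, a level of few reads, and 0 in all knockdown clusters. Its mean over the 12 libraries was too low for it to be tested. The list also holds vgll4l itself, the target of the Vgll4l morpholino, which adds to the share. Its remaining genes, sox17, sox32, foxj1a, tbx16 and rfx2, encode transcription factors. The paper proposes that Vgll4l and Yap/Taz regulate the expression of these factors. The forerunner share therefore cannot measure forerunner cell content apart from the knockdowns. Markers of the enveloping layer, the outer epithelium of the embryo, took 0.550 to 0.589% of control counts, 4.03 to 4.57% of Vgll4l counts and 0.802 to 0.809% of Yap/Taz counts. In Vgll4l clusters 14 of the 18 tested enveloping layer markers were higher than in control clusters and 1 was lower, and in Yap/Taz clusters 5 were higher and 3 lower. Markers of the yolk syncytial layer, which lies beneath the forerunner cells, took 0.218 to 0.245%, 0.823 to 0.886% and 1.83 to 1.87% in the same order, with 13 of 18 higher and 3 lower in Vgll4l clusters and 13 higher and 2 lower in Yap/Taz clusters. Of these lists, 1 yolk syncytial layer marker had no read in control clusters. Over all genes tested, 30.5% were called higher and 40.9% lower after Vgll4l knockdown, and 30% and 38.7% after Yap/Taz knockdown. The part of the marker shares in the levels of the secretory genes was not tested, and in bulk libraries fewer cells of a type and less RNA per cell cannot be told apart. Vgll4l replicate 2 stood apart, with 16615 genes detected against 13908 to 14179 in the other Vgll4l libraries.

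Of the 79 secretory genes, 76 passed the filter on low values, a mean of 1 or more normalized counts over the 12 libraries. sec22c and tmed6 had no read in any library, and tmed8 had 1 read in all. A gene was called when its adjusted p in limma was under 0.05 and its log2 fold change, on the scale of log2(normalized count + 1), was at least 1 in either direction. This fold change is written log2FC, with ± its standard error in limma. Against control clusters, Vgll4l clusters had 22 secretory genes higher, 23 lower and 31 not called, where 30.5% of all 17609 genes tested were called higher and 40.9% lower. In Yap/Taz clusters 26 secretory genes were higher, 16 lower and 34 not called, beside 30% of all genes called higher and 38.7% lower. Secretory genes were thus called higher at shares of 28.9% and 34.2%, near those of all genes, and lower at 30.3% and 21.1%. The median log2 fold change of the secretory genes was 0.07 in Vgll4l clusters and 0.20 in Yap/Taz clusters, beside -0.26 and -0.27 over all genes tested. Scaling moved this centre: the median of all genes after Vgll4l knockdown was -0.09 with TMM scaling and -0.47 with scaling to the library total, and the secretory genes then split into 24 higher and 21 lower, and 17 higher and 27 lower. After Yap/Taz knockdown the same scalings gave all-gene medians of -0.16 and -0.29, and splits of 27 to 14 and 26 to 16. The shares and medians of all genes are not matched for level. A mean of 500 normalized counts was reached by 23 of the 76 secretory genes and by 2484 of the 17609. All 4 knockdown libraries lay outside the range of the 4 control libraries for 62 secretory genes after Vgll4l knockdown (81.6%, beside 79.2% of all genes) and for 66 after Yap/Taz knockdown (86.8%, beside 80.9%). The 2 comparisons share their control clusters, so a gene with an unusual control level appears in both, and their values are given side by side.

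Calls were fewest among genes with the most reads, whose values have the least counting error. Of the 23 secretory genes whose mean over the 12 libraries reached 500 normalized counts, 7 were higher and 1 was lower after Vgll4l knockdown (34.8% called, beside 54.3% of the 2484 genes at this level). After Yap/Taz knockdown 6 were higher and 3 lower (39.1%, beside 42.6%). All 2484 genes at this level split into 796 higher and 554 lower after Vgll4l knockdown, and 573 higher and 484 lower after Yap/Taz knockdown. Of the 35 secretory genes between 50 and 500, 24 were called in Vgll4l clusters and 22 in Yap/Taz clusters (68.6% and 62.9%, beside 73.1% and 71.1%). Of the 18 genes under 50, 13 and 11 were called (72.2% and 61.1%, beside 75.1% and 74.5%). Within groups the libraries lay close together: for secretory genes with at least 20 reads, the median coefficient of variation was 10.4% in control clusters, 8.37% in Vgll4l clusters and 4.36% in Yap/Taz clusters. The variance between libraries was 1.70, 3.32 and 0.993 times what counting alone gives at the median gene. Over all genes with at least 20 reads in a pair of libraries, each of the 18 pairs within a group differed by more than counting noise, with a mean chi-square per gene of 1.65 to 2.32 among Yap/Taz libraries, 1.80 for Control replicates 1 and 2 and 1.66 for Control replicates 3 and 4, where counting alone gives 1, against 4.06 to 5.54 for the other control pairs. Vgll4l replicates 3 and 4 gave 1.82, and the other Vgll4l pairs 2.95 to 13.2. The libraries were kept as separate replicates, as labelled. A spread above counting noise does not show that they come from separate clusters. As an alternative, the close libraries of the other groups (Control 1 with 2, Control 3 with 4, and the 4 Yap/Taz libraries) were averaged to 1 value each. The Vgll4l libraries were all kept separate there, so it does not cover the closeness of Vgll4l replicates 3 and 4. The p-values are set by this small spread, which covers differences between the libraries and not differences between further batches of embryos.

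The genes of the Sec61 channel lay above the controls in both knockdowns, and sec62 and sec63, whose products assist it, below them. The 6 translocon genes took 0.106 to 0.114% of the normalized counts of control libraries, 0.251 to 0.257% of Vgll4l libraries and 0.197 to 0.199% of Yap/Taz libraries, and these ranges do not overlap. All 6 had means above 500 normalized counts over the 12 libraries. Of the 2484 genes at this level, 796 were higher and 554 lower after Vgll4l knockdown, and 573 and 484 after Yap/Taz knockdown. Of the 6 translocon genes, 4 were higher and none lower after Vgll4l knockdown, beside 30.5% and 40.9% of all genes, which are not matched for level. After Yap/Taz knockdown 3 were higher and 1 lower, beside 30% and 38.7%. sec61a1l (ENSDARG00000005675) encodes the pore-forming alpha subunit, as does sec61a1. It had 316, 305, 326 and 380.1 normalized counts in control clusters, 2041, 2019, 2166 and 2039 in Vgll4l clusters and 3187, 3200.2, 3172 and 3122 in Yap/Taz clusters. Every knockdown library lay far above every control library, and the Yap/Taz libraries lay above the Vgll4l libraries. It rose in both knockdowns (log2FC 2.64 ± 0.06, adjusted p = 1.6e-13 for Vgll4l, and log2FC 3.26 ± 0.06, adjusted p = 2.9e-14 for Yap/Taz). The other alpha gene, sec61a1 (ENSDARG00000021669), had 2307, 2412, 2419 and 2393 normalized counts in control clusters. In Vgll4l clusters it reached 11434, 9547, 12292 and 12223, and in Yap/Taz clusters 3760.0, 3912, 3625 and 3744. The groups do not overlap, and the order of the knockdowns was opposite to that of sec61a1l. It rose after Vgll4l knockdown (log2FC 2.25 ± 0.06, adjusted p = 1.3e-12), while the Yap/Taz difference (log2FC 0.66, adjusted p = 2.7e-07) was under the fold threshold. The 2 alpha genes are close copies and may share reads. sec61g (ENSDARG00000018637), the gamma subunit, had 259, 340.3, 435 and 431 normalized counts in control clusters, 2104, 2287, 1449 and 1599 in Vgll4l clusters and 1655, 1546, 1699 and 1558 in Yap/Taz clusters. Both knockdown groups lay above the controls and overlapped each other (log2FC 2.35, adjusted p = 7.9e-09 and log2FC 2.17, adjusted p = 2.0e-08).

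sec61b, the beta subunit, had 2114 ± 42.01 normalized counts in control clusters (SD, n = 4), 4974 ± 435 in Vgll4l clusters and 4335 ± 83.4 in Yap/Taz clusters, and was called higher in both (log2FC 1.23, adjusted p = 2.4e-11 and log2FC 1.04, adjusted p = 1.2e-10). With scaling to the library total its Vgll4l value was 0.95 and was no longer called. sec62 (ENSDARG00000019951), which with Sec63 assists proteins that enter the ER after their synthesis, had 1101, 1091, 1066 and 1037 normalized counts in control clusters, 698, 732, 753 and 723 in Vgll4l clusters and 488, 510.2, 513 and 476 in Yap/Taz clusters. Its levels were lower in every knockdown library, and it fell after Yap/Taz knockdown (log2FC -1.11 ± 0.05, adjusted p = 5.1e-11), a call that TMM scaling ends at -0.97. After Vgll4l knockdown its log2 fold change was -0.56, under the threshold. sec63, a J-domain protein that engages the ER chaperone BiP, had 1516 ± 140.1, 799 ± 77.2 and 916 ± 11.6 normalized counts (SD, n = 4 each), with log2 fold changes of -0.92 and -0.72, neither called. With scaling to the library total sec63 was called lower after Vgll4l knockdown (-1.21), and the translocon then had 3 genes higher and 1 lower.

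The COPII genes did not move as a group. Of 10, 2 were higher and 2 lower after Vgll4l knockdown, beside 30.5% and 40.9% of all genes. After Yap/Taz knockdown 3 were higher and 1 lower, beside 30% and 38.7%. The COPII genes had median log2 fold changes of 0.10 and 0.04, the first of which was -0.04 with scaling to the library total. The outer cage is built from Sec13 and Sec31. sec13 (ENSDARG00000054807) had 134, 146, 162 and 175 normalized counts in control clusters, 322, 364, 349.8 and 369.5 in Vgll4l clusters and 1081, 1048, 1028 and 1076 in Yap/Taz clusters. The groups stand in 3 separate steps. sec13 rose in both knockdowns (log2FC 1.19 ± 0.08, adjusted p = 6.6e-09, and log2FC 2.77 ± 0.08, adjusted p = 2.0e-12), and its Vgll4l value was 0.90 with scaling to the library total, under the threshold. Sec13 is also a subunit of the nuclear pore. sec31a had 287 ± 21.9, 233 ± 18.6 and 163 ± 14.7 normalized counts (SD, n = 4 each), with log2 fold changes of -0.30 and -0.82 that were not called. The inner coat is built from Sec23 and Sec24. sec23a (ENSDARG00000104230) encodes an activator of GTP hydrolysis by the GTPase Sar1. It had 6.48, 9.16, 11.3 and 13.03 normalized counts in control clusters, 67.2, 74.6, 58.6 and 62.7 in Vgll4l clusters and 219.8, 231, 219 and 223 in Yap/Taz clusters. Again the groups do not overlap, and the gene rose in both (log2FC 2.64 ± 0.18, adjusted p = 7.1e-09, and log2FC 4.39 ± 0.18, adjusted p = 4.3e-11). Its relative sec23b had 522 ± 26.1, 696 ± 35.7 and 886 ± 25.03 normalized counts (SD, n = 4 each) and was not called (log2 fold changes 0.41 and 0.76).

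The Sec24 genes, whose products choose the cargo, differed most among themselves. sec24d (ENSDARG00000045946) had 90.7, 79.3, 58.6 and 59.2 normalized counts in control clusters. A single read remained in the Vgll4l clusters (0, 0.944, 0 and 0) and none in the Yap/Taz clusters, which allows a group mean of up to 0.545 normalized counts, the value of 3 reads. It fell after Vgll4l knockdown by 313-fold (55.5 to 12416, with 1 read in the lower group), where the 95% interval covers counting error only, and was at least 132-fold lower after Yap/Taz knockdown (adjusted p = 8.6e-11 and 6.0e-11 in limma). sec24a (ENSDARG00000104375) had 505, 621, 545 and 512 normalized counts in control clusters, 12.99, 43.4, 11.7 and 19.4 in Vgll4l clusters and 331, 320.2, 393 and 357 in Yap/Taz clusters. The Vgll4l libraries were far lower than the others, with replicate 2 the highest of them. All Yap/Taz libraries also lay below the controls. It fell after Vgll4l knockdown (log2FC -4.77 ± 0.30, adjusted p = 2.0e-09), and the difference between the knockdowns was called as well (log2FC -4.13, adjusted p = 1.2e-08). For Yap/Taz the log2 fold change was -0.64, under the threshold (adjusted p = 0.06 in the limma fit of all libraries). sec24b stood at 168 ± 9.47, 298 ± 11.4 and 135 ± 5.43 normalized counts and sec24c at 265 ± 22.8, 216 ± 11.6 and 168 ± 17.2 (SD, n = 4 each), and neither was called against the controls, although sec24b was after Vgll4l knockdown with TMM scaling (1.02) and edgeR (1.03). The Sec23 partner gene sec23ip was not called either (0.21 and 0.39). sec16b, a scaffold of ER exit sites, had no read in control or Vgll4l clusters and 12.7, 15.97, 10.8 and 9.49 normalized counts in Yap/Taz clusters, at least 12.3-fold above the controls (adjusted p = 2.0e-10 in limma).

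COPI genes took a larger share of the counts after Yap/Taz knockdown. The 7 genes took 0.0440 to 0.0461% of normalized counts in control libraries, 0.0471 to 0.0502% in Vgll4l libraries and 0.0817 to 0.0839% in Yap/Taz libraries. Of the 7, 2 were higher and none lower after Vgll4l knockdown, beside 30.5% and 40.9% of all genes. After Yap/Taz knockdown 3 were higher and 1 lower, beside 30% and 38.7%. The 7 genes had median log2 fold changes of 0.64 and 0.93, which stayed above 0 under both other scalings. copg2 (ENSDARG00000034823), a gamma subunit, had 107, 102, 115 and 97.1 normalized counts in control clusters, 368, 432, 331 and 358 in Vgll4l clusters and 698, 733, 741 and 702 in Yap/Taz clusters. The libraries form 3 separate ranges, and copg2 rose in both knockdowns (log2FC 1.81 ± 0.09, adjusted p = 1.5e-10, and log2FC 2.76 ± 0.09, adjusted p = 3.3e-12). copb2 (ENSDARG00000038743), the beta prime subunit that reads the retrieval signal of cargo, had 264, 249, 319 and 289, then 535, 629, 518 and 548, then 1507, 1578, 1522 and 1631 normalized counts in the same order of groups. It rose after Yap/Taz knockdown (log2FC 2.48 ± 0.08, adjusted p = 4.8e-12). Its Vgll4l value of 0.99 lay just under the threshold, and it was called with TMM scaling (1.19) and without Control replicate 3 (1.06), Control replicate 4 (1.01), Vgll4l replicate 1 (1.01) or Vgll4l replicate 3 (1.03). copz2 (ENSDARG00000006786), a zeta subunit, moved in opposite directions. It had 38.9, 44.3, 39.5 and 58.02 normalized counts in control clusters, 89.4, 85.9, 100.6 and 91.2 in Vgll4l clusters and 9.33, 4.79, 7.22 and 9.49 in Yap/Taz clusters. The Vgll4l libraries lay above the controls and the Yap/Taz libraries below them. It was called higher after Vgll4l knockdown (log2FC 1.02 ± 0.22, adjusted p = 5.8e-04) and fell after Yap/Taz knockdown (log2FC -2.43 ± 0.22, adjusted p = 1.2e-07), and the knockdowns differed (log2FC 3.45, adjusted p = 3.3e-09). The Vgll4l call ends without Control replicate 1 (0.96), Control replicate 3 (0.97) or Vgll4l replicate 3 (0.98), and with scaling to the library total (0.75). The other zeta gene, copz1, rose after Yap/Taz knockdown from 379.8 ± 41.2 to 982 ± 24.9 normalized counts (SD, n = 4 each, log2FC 1.37, adjusted p = 7.7e-10) and had 592 ± 43.3 in Vgll4l clusters. The alpha subunit gene copa (ENSDARG00000004173) had 908, 853, 862 and 954 normalized counts in control clusters, 513, 624, 513 and 472 in Vgll4l clusters and 527, 517, 515 and 499 in Yap/Taz clusters, all knockdown libraries lying below the controls with log2 fold changes of -0.76 and -0.80. With scaling to the library total copa was called lower after Vgll4l knockdown (-1.04), and the COPI genes then split into 1 higher and 1 lower. The beta subunit gene copb1 (0.48 and -0.13) and the epsilon subunit gene cope (0.37 and 0.93) were not called, although cope was after Yap/Taz knockdown with TMM scaling (1.07). The delta subunit genes arcn1a and arcn1b are not taken in by the symbol rule and are not among the 7. arcn1b was called lower after Vgll4l knockdown (log2FC -1.90) and not after Yap/Taz knockdown (-0.82), and arcn1a was called in neither (-0.52 and -0.66).

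**Figure D1:**
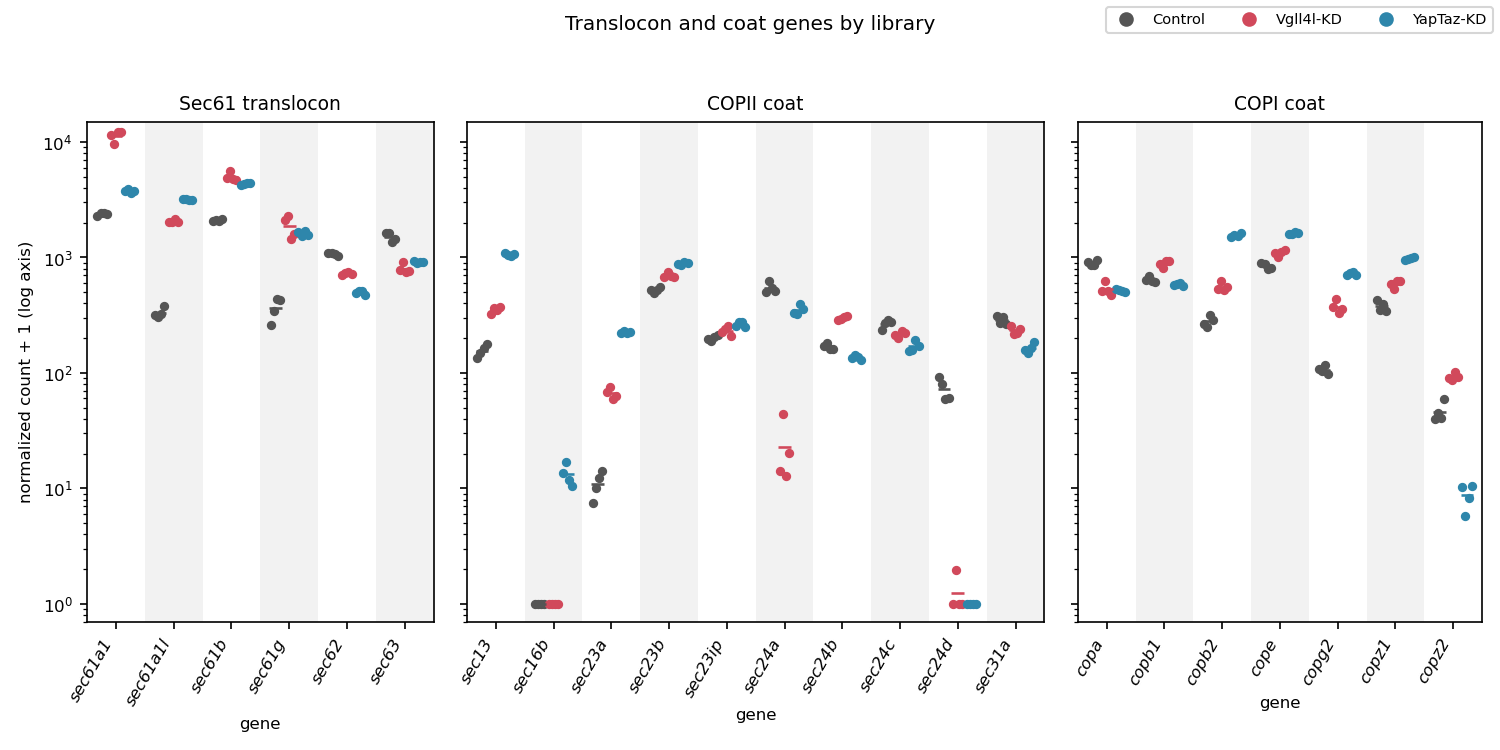
Normalized count + 1 (y axis, log axis) of each translocon, COPII and COPI gene (x axis) in each library, with Control in grey, Vgll4l-KD in red and YapTaz-KD in blue. Points are libraries and short lines group means of 4 libraries. The sec61 genes lie above the controls in both knockdowns, sec24d is at or near 0 reads in both, and copz2 is split between them.

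Of the 11 p24 cargo receptor genes 9 were tested, and 3 were higher and 1 was lower in each knockdown. All genes tested were called higher at 30.5% and 30%, and lower at 40.9% and 38.7%, after Vgll4l and Yap/Taz knockdown. tmed2, tmed5, tmed7 and tmed10 were called in neither. tmed10 (ENSDARG00000041391), whose product pairs with Tmed2 and binds both coats, had 4029, 4077, 3723 and 3732 normalized counts in control clusters, 2681, 2747, 2650.0 and 2710.2 in Vgll4l clusters and 2673, 2601, 2585 and 2684 in Yap/Taz clusters. The knockdown libraries overlap each other and all lie below the controls, with log2 fold changes of -0.53 (SE 0.04) and -0.56, under the fold threshold. tmed2, tmed5 and tmed7 had log2 fold changes between -0.63 and 0.30. tmed4 (ENSDARG00000024954) had 89.04, 48.8, 67.6 and 74.6 normalized counts in control clusters, 630.4, 551, 688 and 610.1 in Vgll4l clusters and 165, 168, 201 and 158 in Yap/Taz clusters. It rose in both (log2FC 3.16 ± 0.15, adjusted p = 1.9e-10, and log2FC 1.32 ± 0.15, adjusted p = 2.1e-06), and more after Vgll4l knockdown (log2FC 1.84, adjusted p = 6.5e-08). tmed3 (ENSDARG00000028816) had 25.9, 22.9, 43.97 and 33.2 in control clusters, then 83.3, 90.6, 80.1 and 72.8 in Vgll4l clusters, and then 151, 163, 147 and 143 in Yap/Taz clusters (normalized counts). It also rose in both (log2FC 1.39, adjusted p = 4.8e-06 and log2FC 2.27, adjusted p = 2.7e-08). tmed9 rose after Vgll4l knockdown from 807 ± 57.9 to 2113 ± 267 normalized counts (SD, n = 4 each, log2FC 1.38, adjusted p = 1.6e-09), and had 1083 ± 41.3 after Yap/Taz knockdown (log2 fold change 0.43, not called).

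The 2 tmed1 copies parted after Yap/Taz knockdown. tmed1a (ENSDARG00000031325) had 100.4, 134, 90.2 and 91.2 normalized counts in control clusters, 57.3, 79.3, 46.9 and 55.3 in Vgll4l clusters and 763, 767, 766 and 790.4 in Yap/Taz clusters. tmed1b (ENSDARG00000017255) had 56.7, 57.98, 68.8 and 87.6 in control clusters, then 25.2, 33.99, 26.4 and 31.3 in Vgll4l clusters, and then 17.3, 18.4, 7.94 and 22.6 in Yap/Taz clusters. After Yap/Taz knockdown tmed1a thus lay far above its control range and tmed1b below it. tmed1a rose (log2FC 2.90 ± 0.16, adjusted p = 4.9e-10) and tmed1b fell (log2FC -2.03 ± 0.28, adjusted p = 1.0e-05). After Vgll4l knockdown tmed1b fell (log2FC -1.17, adjusted p = 0.0014, and -0.98 with TMM scaling, no longer called) and tmed1a was not called (-0.80), although it was with scaling to the library total (-1.08). Reads of these copies may be assigned to either gene. The 11 tmed genes together took 0.135 to 0.142% of control counts, 0.115 to 0.119% of Vgll4l counts and 0.129 to 0.130% of Yap/Taz counts.

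TRAPP activates Rab GTPases and tethers vesicles at the Golgi, and its subunits were called in both directions. Of 11 TRAPP genes, 3 were higher and 5 lower after Vgll4l knockdown (27.3% and 45.5%, beside 30.5% and 40.9% of all genes). After Yap/Taz knockdown 3 were higher and 3 lower (27.3% each, beside 30% and 38.7%). The Vgll4l shares were near those of all genes. trappc2l (ENSDARG00000100109) had 0, 0, 3.38 and 0 normalized counts in control clusters, that is 3 reads in replicate 3 and none elsewhere. It had 330.1, 373, 334 and 326 in Vgll4l clusters and 47.97, 52.7, 54.9 and 51.1 in Yap/Taz clusters. The ratio to the control group was 341 (116 to 1654) after Vgll4l knockdown and 51.6 (17.5 to 252) after Yap/Taz knockdown, with 95% intervals of the counts in parentheses (adjusted p = 2.3e-10 and 1.9e-08 in limma). Its relative trappc2 (ENSDARG00000097660), a core subunit, went the other way, from 8.09, 19.8, 13.5 and 20.1 normalized counts in control clusters to 0, 4.72, 0.977 and 0.922 in Vgll4l clusters (log2FC -2.85, adjusted p = 3.0e-05) and 0 in all Yap/Taz clusters, at least 28.3-fold lower. The core subunit genes trappc1, trappc3, trappc4 and trappc5 had 4 different patterns. trappc5 (ENSDARG00000026068) had 1481, 1382, 1219.8 and 1301 normalized counts in control clusters, 458, 414, 453 and 445 in Vgll4l clusters and 332, 335, 333 and 361 in Yap/Taz clusters. It was low in every knockdown library and fell in both (log2FC -1.60 ± 0.07, adjusted p = 3.6e-11, and log2FC -1.98 ± 0.07, adjusted p = 5.4e-12). trappc4 (ENSDARG00000027418) had 12.95, 15.3, 10.1 and 22.5 normalized counts in control clusters, 194, 188, 191 and 186 in Vgll4l clusters and 11.99, 19.96, 15.9 and 13.9 in Yap/Taz clusters. Only the Vgll4l libraries were high, and the other groups overlapped (log2FC 3.61, adjusted p = 2.6e-09, against 0.05 after Yap/Taz knockdown). trappc3 had 272 ± 28.5, 140.0 ± 8.22 and 584 ± 14.5 normalized counts (SD, n = 4 each) and rose after Yap/Taz knockdown (log2FC 1.11, adjusted p = 1.7e-08). Its Vgll4l value of -0.95 was not called, except without Control replicate 3 (-1.01) and with scaling to the library total (-1.23). trappc1 was not called (0.23 and -0.72).

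trappc11, trappc12 and trappc13 encode subunits of TRAPPIII, which in mammals also acts in autophagy. trappc12 (ENSDARG00000060101) had 71.2, 45.8, 83.4 and 85.3 normalized counts in control clusters, 0.764, 3.78, 0 and 0.922 in Vgll4l clusters and 99.9, 90.2, 84.4 and 77.4 in Yap/Taz clusters. It was near 0 only in the Vgll4l libraries, where it fell (log2FC -5.13 ± 0.39, adjusted p = 1.6e-08), and the knockdowns differed (log2FC -5.47, adjusted p = 1.0e-08). trappc11 (ENSDARG00000004726) had 139, 134, 101.5 and 95.9 in control clusters, then 36.7, 29.3, 37.1 and 55.3 in Vgll4l clusters, and then 3.33, 3.99, 5.05 and 2.92 in Yap/Taz clusters. It was lowest in the Yap/Taz libraries and fell in both (log2FC -1.57, adjusted p = 2.5e-05 and log2FC -4.62, adjusted p = 3.0e-10). trappc13, at 25.6 ± 15.1 normalized counts in control clusters (SD, n = 4), fell after Vgll4l knockdown to 1.14 ± 1.80 (log2FC -3.81, adjusted p = 5.2e-06) and had 18.8 ± 3.55 after Yap/Taz knockdown. A pair of table entries carry the name of the TRAPPII subunit Trappc9 and may share reads. The entry trappc9 (ENSDARG00000103106) had 1.62, 7.63, 0 and 0 normalized counts in control clusters, 0, 0.944, 0 and 0 in Vgll4l clusters and 55.3, 58.3, 66.4 and 40.1 in Yap/Taz clusters, and rose after Yap/Taz knockdown (log2FC 4.66, adjusted p = 3.2e-06, and 5.32 without Control replicate 2). The entry TRAPPC9 (ENSDARG00000099118) had 2.25, 10.04 and 4.60 normalized counts on average and was called higher after Vgll4l knockdown (log2FC 1.97, adjusted p = 8.5e-04).

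The golg genes differed between the knockdowns. The counts include golga7 and golga7ba, which are not tethers and are described below. Of the golg genes called higher against the controls, only golga5, after Vgll4l knockdown, encodes a tether. After Vgll4l knockdown 3 of 7 golg genes were higher and none lower, beside 30.5% and 40.9% of all genes. After Yap/Taz knockdown 1 was higher and 3 were lower, beside 30% and 38.7%. Between the knockdowns 5 were higher in Vgll4l clusters and 1 in Yap/Taz clusters, where 30% of all genes were called higher and 33.2% lower. golga4 (ENSDARG00000075331), a coiled-coil tether of the trans-Golgi, had 100.4, 125, 101.5 and 134 normalized counts in control clusters, 121, 105, 124 and 113 in Vgll4l clusters and 9.99, 7.19, 7.94 and 8.76 in Yap/Taz clusters. The control and Vgll4l libraries overlap, and only the Yap/Taz libraries were low (log2FC -3.61 ± 0.16, adjusted p = 5.8e-11). golga1 (ENSDARG00000008979), another trans-Golgi tether, had 84.2, 93.1, 72.2 and 88.8 in control clusters, then 81.00, 68.9, 76.2 and 88.5 in Vgll4l clusters, and then 11.99, 11.98, 17.3 and 15.3 in Yap/Taz clusters. Its pattern was the same, with a fall after Yap/Taz knockdown only (log2FC -2.51 ± 0.17, adjusted p = 4.4e-09). The difference between the knockdowns was called for both, at 3.63 for golga4 and 2.40 for golga1 on the log2 scale. golga2, which encodes the cis-Golgi tether GM130, had 831 ± 32.7, 1372 ± 277 and 347 ± 12.4 normalized counts (SD, n = 4 each) and fell after Yap/Taz knockdown (log2FC -1.26, adjusted p = 2.0e-07), with a value of 0.70 after Vgll4l knockdown that was not called. golga5 (ENSDARG00000039279), a membrane-anchored golgin, had 58.3, 42.7, 62.00 and 65.1 normalized counts in control clusters, 306, 264, 326 and 324 in Vgll4l clusters and 81.3, 95.8, 117 and 89.8 in Yap/Taz clusters. It rose after Vgll4l knockdown (log2FC 2.41 ± 0.15, adjusted p = 2.3e-09). golgb1, the gene of giantin, had log2 fold changes of 0.65 in both comparisons and was not called.

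The rule also takes in golga7 and golga7ba, which are not tethers: in mammals Golga7 is a partner of a palmitoyltransferase that anchors Ras. golga7 (ENSDARG00000057676) had 2061, 2029, 1909 and 1846 normalized counts in control clusters, 5445, 4588, 5754 and 5453 in Vgll4l clusters and 1123, 1194, 1167 and 1092 in Yap/Taz clusters. The Vgll4l libraries lay above the controls and the Yap/Taz libraries below them. It rose after Vgll4l knockdown (log2FC 1.43 ± 0.06, adjusted p = 6.8e-11), and the Yap/Taz value of -0.78 was under the threshold. golga7ba (ENSDARG00000036295) had 79.3, 76.3, 74.4 and 98.3 in control clusters, then 157, 180.3, 178 and 162 in Vgll4l clusters, and then 801, 809, 759 and 765 in Yap/Taz clusters. It rose after Yap/Taz knockdown (log2FC 3.25 ± 0.10, adjusted p = 1.9e-12) and was called higher after Vgll4l knockdown (log2FC 1.04, adjusted p = 1.3e-07), a call that ends without Control replicate 3 (0.998) and with scaling to the library total (0.76). These related genes may share reads. The 7 golg genes together took 0.0494 to 0.0516% of control counts, 0.0828 to 0.0999% of Vgll4l counts and 0.0414 to 0.0435% of Yap/Taz counts. In each group golga7 had the highest mean of the 7 and so the largest part of this share.

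**Figure D2:**
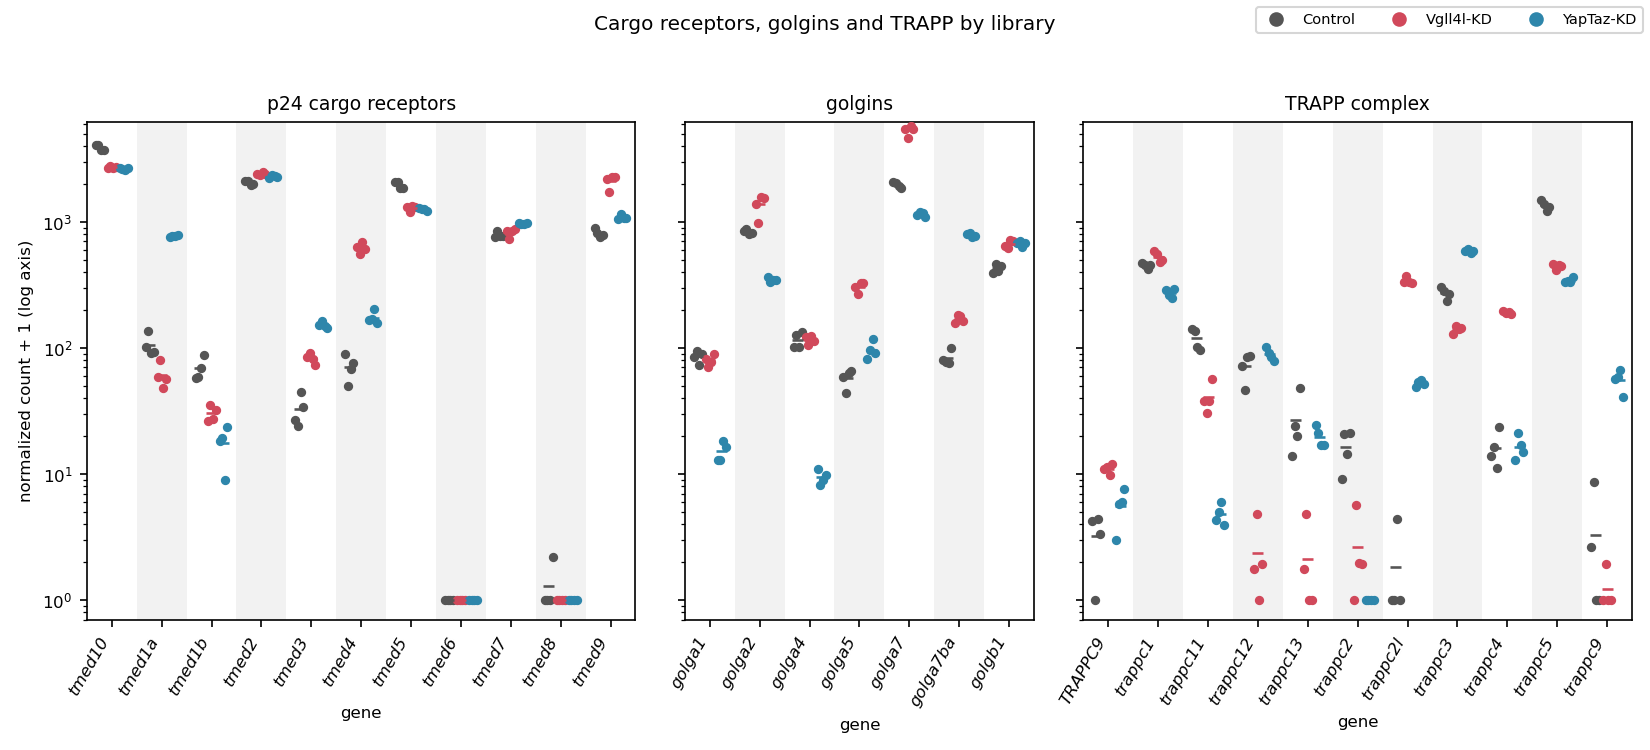
Normalized count + 1 (y axis, log axis) of each p24 cargo receptor, golgin and TRAPP gene (x axis) in each library, coloured by group, with lines at the group means of 4 libraries. golga1 and golga4 are low only in YapTaz-KD clusters, trappc12 only in Vgll4l-KD clusters, and trappc2l is near 0 only in Control clusters.

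The COG complex has 8 subunits, 4 in each of its lobes, and is needed to keep glycosylation enzymes in their place in the Golgi. Of the 8 genes, 6 were lower and 1 was higher after Vgll4l knockdown, beside 40.9% and 30.5% of all genes. After Yap/Taz knockdown 3 were lower and 2 higher, beside 38.7% and 30%. The COG genes had a median log2 fold change of -1.96 after Vgll4l knockdown, and it lay between -2.20 and -1.77 under the other scalings. Their summed share of counts was 0.0173 to 0.0193% in control libraries, 0.00643 to 0.00712% in Vgll4l libraries and 0.00990 to 0.0106% in Yap/Taz libraries. cog1 to cog4 encode the first lobe. cog3 (ENSDARG00000101999) had 665, 819, 636 and 656 normalized counts in control clusters, 42.8, 42.5, 43.97 and 40.5 in Vgll4l clusters and 1.33, 0.798, 0 and 0 in Yap/Taz clusters. It was low in every knockdown library and all but absent from the Yap/Taz libraries, with 3 reads in the group. It fell after Vgll4l knockdown (log2FC -3.99 ± 0.26, adjusted p = 3.2e-09) and, by a ratio of 1263 (431 to 6128), after Yap/Taz knockdown (adjusted p = 1.6e-12 in limma). cog4 (ENSDARG00000054264) had 321, 323, 284 and 313 normalized counts in control clusters, 9.93, 10.4, 1.95 and 4.61 in Vgll4l clusters and 2.00, 0, 0 and 0.730 in Yap/Taz clusters, and fell in both (log2FC -5.53 ± 0.45, adjusted p = 3.4e-08, and log2FC -7.69 ± 0.45, adjusted p = 1.1e-09). cog2 (ENSDARG00000004037) had the reverse pattern. It had 3.24, 0, 0 and 0 normalized counts in control clusters, 0.764, 4.72, 1.95 and 0.922 in Vgll4l clusters and 342, 366, 346 and 374 in Yap/Taz clusters. Only the Yap/Taz libraries held more than a few reads, at a ratio to the controls of 535 (148 to 4423), with 2 reads in the control group (adjusted p = 1.6e-09 in limma). Its Vgll4l value of 0.94 was not called, except without Control replicate 1 (1.46). cog1, with 9.38 ± 2.42 normalized counts in control clusters (SD, n = 4), had 1 read in the Vgll4l clusters (ratio 43.2 (7.16 to 1765), adjusted p = 6.0e-07 in limma) and 9.03 ± 3.88 in Yap/Taz clusters.

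cog5 to cog8 encode the second lobe. cog8 (ENSDARG00000002798) had 11.3, 16.8, 16.9 and 22.5 normalized counts in control clusters, 421, 406, 478 and 447 in Vgll4l clusters and 19.3, 20.8, 15.9 and 22.6 in Yap/Taz clusters. It was high only in the Vgll4l libraries (log2FC 4.65 ± 0.19, adjusted p = 3.4e-11), and it was the one COG gene that rose there. cog5 (ENSDARG00000008235) had 139, 108, 136 and 137 normalized counts in control clusters, 60.4, 83.1, 42.99 and 53.4 in Vgll4l clusters and 274, 316, 313 and 292 in Yap/Taz clusters. The Vgll4l libraries lay below the controls and the Yap/Taz libraries above them. It rose after Yap/Taz knockdown (log2FC 1.20 ± 0.17, adjusted p = 1.3e-05) and was called lower after Vgll4l knockdown (log2FC -1.14 ± 0.17, adjusted p = 2.0e-05), and the knockdowns differed (log2FC -2.34, adjusted p = 1.2e-08). The Vgll4l call ends without Vgll4l replicate 3 (-0.996) and with TMM scaling (-0.94). cog7 had 106 ± 12.01, 21.2 ± 8.42 and 49.2 ± 4.75 normalized counts (SD, n = 4 each) and was called lower in both (log2FC -2.34, adjusted p = 3.6e-07 and log2FC -1.09, adjusted p = 6.4e-04, the second at -0.96 with TMM scaling and then not called, nor with the close libraries averaged, where adjusted p = 0.12). cog6, at 11.02 ± 5.25 normalized counts in control clusters, was called lower after Vgll4l knockdown (log2FC -1.57, adjusted p = 0.0064) although its libraries overlap the controls, and the call ends with the close libraries averaged (adjusted p = 0.053). Between the knockdowns 3 COG genes were called higher and 5 lower in Vgll4l clusters, beside 30% and 33.2% of all genes. With the close libraries averaged the calls of cog4, cog6 and cog7 in this comparison end (adjusted p = 0.059, 0.18 and 0.070), and that of cog6 also ends without Vgll4l replicate 1 (adjusted p = 0.051) or 3 (adjusted p = 0.059).

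Exocyst genes were also called in both directions. The exocyst tethers secretory vesicles at the plasma membrane and is known for its part in the growth of cilia and lumens. Of the 13 genes, 3 were higher and 7 lower after Vgll4l knockdown, beside 30.5% and 40.9% of all genes. After Yap/Taz knockdown 5 were higher and 3 lower, beside 30% and 38.7%. exoc1 to exoc8, with the related exoc6b, encode exocyst subunits, and the others of the 13 are exoc3-like genes. The counts include these others: exoc3l2a and exoc3l2b were called lower in both knockdowns, and exoc3l1 and exoc3l4 higher after Yap/Taz knockdown. exoc7 (ENSDARG00000087229), whose product binds the lipids of the plasma membrane, had 6.48, 7.63, 5.64 and 4.74 normalized counts in control clusters, 739.7, 567, 823 and 828 in Vgll4l clusters and 285, 293, 263 and 266 in Yap/Taz clusters. It was near the lowest level in all 4 control libraries and high in all 8 knockdown libraries. It rose in both (log2FC 6.70 ± 0.15, adjusted p = 1.5e-13, and log2FC 5.30 ± 0.15, adjusted p = 1.3e-12). exoc5 (ENSDARG00000060323), which in zebrafish is needed for cilia, had the opposite pattern, with 113, 94.6, 94.7 and 76.97 normalized counts in control clusters, 2.29, 10.4, 4.89 and 5.53 in Vgll4l clusters and 0.666, 0, 0.722 and 0 in Yap/Taz clusters. It fell after Vgll4l knockdown (log2FC -3.95 ± 0.36, adjusted p = 1.2e-07) and, with 2 reads left, after Yap/Taz knockdown at a ratio of 258 (70.7 to 2138) (adjusted p = 1.1e-09 in limma). exoc3 (ENSDARG00000014582) had 371, 410.5, 361 and 366 normalized counts in control clusters, 0, 23.6, 0.977 and 1.84 in Vgll4l clusters and 152, 142, 157 and 163 in Yap/Taz clusters. It fell after Vgll4l knockdown (log2FC -6.78 ± 0.69, adjusted p = 4.1e-07), where replicate 2 held most of the remaining reads and the value was -7.73 without it and -6.19 without Vgll4l replicate 1. All Yap/Taz libraries lay below the controls, and the gene was not called (log2FC -1.29, adjusted p = 0.098). Without Vgll4l replicate 2, which sets the spread of this gene in the fit of all libraries, the Yap/Taz value was -1.29 with adjusted p = 0.00033 and was called. The gene was also called with Yap/Taz and control clusters compared alone (adjusted p = 2.8e-07 in limma), a pseudocount of 10 (-1.24) and edgeR (-1.16). It was not called with TMM scaling, scaling to the library total or DESeq2. exoc2 fell after Vgll4l knockdown from 208 ± 21.6 to 2.80 ± 4.45 normalized counts (SD, n = 4 each, log2FC -6.40, adjusted p = 3.2e-08, and -7.10 without Vgll4l replicate 2) and had 137 ± 5.78 after Yap/Taz knockdown, not called (-0.59).

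exoc1 (ENSDARG00000043019), whose yeast counterpart marks the site of fusion, had 32.4, 30.5, 34.9 and 40.3 normalized counts in control clusters, 77.2, 79.3, 74.3 and 76.5 in Vgll4l clusters and 213, 244, 226 and 245 in Yap/Taz clusters. The groups do not overlap and rise in this order (log2FC 1.14 ± 0.12, adjusted p = 4.1e-07, and log2FC 2.72 ± 0.12, adjusted p = 5.0e-11). With scaling to the library total the Vgll4l value was 0.86, under the threshold. exoc8 had 1 read in the control clusters, 2 in the Vgll4l clusters and 29.3, 23.2, 31.03 and 33.6 normalized counts in Yap/Taz clusters, a ratio to the controls of 88.3 (15.6 to 3511) (adjusted p = 3.8e-08 in limma). exoc4 had no read in control or Yap/Taz clusters and 9.17, 0.944, 1.95 and 2.76 normalized counts in Vgll4l clusters, at least 3.71-fold above the controls (adjusted p = 2.0e-04 in limma). Replicate 1 held 12 of its 18 reads, and without that library the bound was 1.89-fold. The related genes exoc6 and exoc6b, which may share reads, were both lower after Vgll4l knockdown (log2FC -1.41, adjusted p = 1.3e-04 and log2FC -2.07, adjusted p = 4.4e-06). Neither was called after Yap/Taz knockdown (0.85 and 0.12), although exoc6 was without Control replicate 1 (1.01). The exoc3-like genes are relatives of exoc3. exoc3l2a (ENSDARG00000008414) had 183, 203, 132 and 156 normalized counts in control clusters, 0.764, 0.944, 0.977 and 0 in Vgll4l clusters and 2.66, 0, 2.17 and 0.730 in Yap/Taz clusters. It was all but lost from the knockdown libraries, at a ratio of 246 (83.6 to 1196) below the controls after Vgll4l knockdown (adjusted p = 1.3e-09 in limma) and with log2FC -6.31, adjusted p = 2.5e-09 after Yap/Taz knockdown. Its copy exoc3l2b had 29.1, 36.6, 32.7 and 26.1 normalized counts in control clusters and no read in any of the 8 knockdown libraries, at least 46.4-fold and 57.2-fold lower. exoc3l4 (ENSDARG00000058180) had no read in control clusters, 0, 1.89, 0 and 0 normalized counts in Vgll4l clusters and 65.3, 69.5, 65.7 and 74.4 in Yap/Taz clusters, at least 68.8-fold above the controls (adjusted p = 3.7e-10 in limma). exoc3l1 rose after Yap/Taz knockdown from 9.68 ± 2.68 to 111 ± 15.1 normalized counts (SD, n = 4 each, log2FC 3.41, adjusted p = 1.2e-07) and had 10.5 ± 5.42 in Vgll4l clusters.

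**Figure D3:**
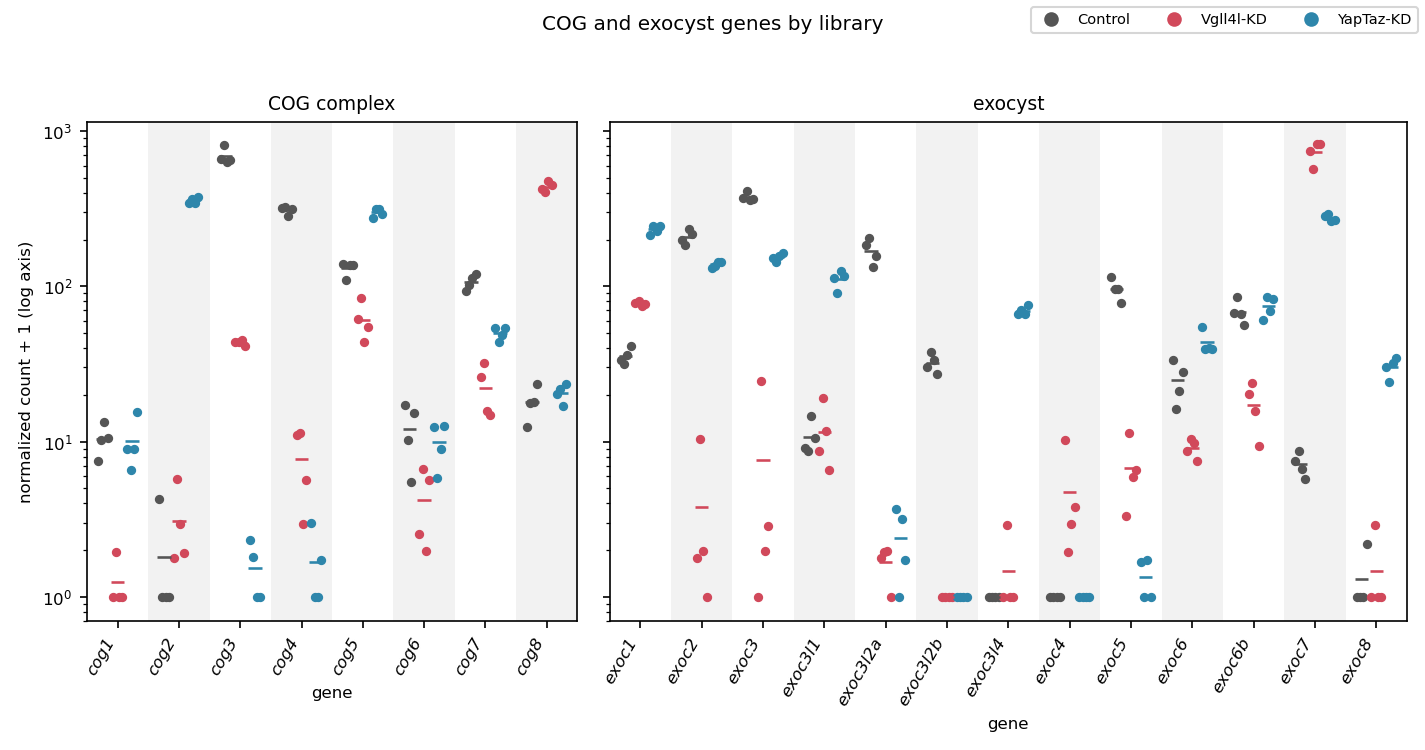
Normalized count + 1 (y axis, log axis) of each COG and exocyst gene (x axis) in each library, coloured by group, with lines at the group means of 4 libraries. Subunits of one complex are high in different groups: cog3 and cog4 in Control, cog8 in Vgll4l-KD, cog2 in YapTaz-KD, and exoc5 in Control but exoc7 in both knockdowns.

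The remaining Sec genes were those of a signal peptidase and a lipid-binding protein, and the sec22 genes. sec11a (ENSDARG00000008936), the catalytic subunit of signal peptidase, had 845, 784, 726 and 754 normalized counts in control clusters, 891, 733, 834 and 823 in Vgll4l clusters and 846, 912, 861 and 862 in Yap/Taz clusters. The 3 groups lay close together, with log2 fold changes of 0.08 and 0.16. sec14l1 (ENSDARG00000098821), a Sec14-like protein with a lipid-binding domain, had 17.8, 21.4, 27.1 and 22.5 normalized counts in control clusters, 739, 600.5, 668 and 768 in Vgll4l clusters and 172, 182, 196 and 196 in Yap/Taz clusters. All knockdown libraries lay above the controls, and the Vgll4l libraries were the highest (log2FC 4.91 ± 0.13, adjusted p = 5.4e-13, and log2FC 3.03 ± 0.13, adjusted p = 4.3e-11). The copies sec22ba and sec22bb encode a SNARE of ER to Golgi traffic and may share reads. sec22ba (ENSDARG00000030108) had 17.8, 24.4, 21.4 and 17.8 normalized counts in control clusters, 22.2, 40.6, 22.5 and 23.04 in Vgll4l clusters and 344, 321, 317 and 359.8 in Yap/Taz clusters. It rose after Yap/Taz knockdown (log2FC 3.99 ± 0.20, adjusted p = 1.9e-10) and was not called after Vgll4l knockdown (0.36). sec22bb (ENSDARG00000100435) had 84.2, 57.98, 63.1 and 74.6 in control clusters, then 1.53, 3.78, 1.95 and 0 in Vgll4l clusters, and then 178, 181, 172 and 182 in Yap/Taz clusters. It was close to 0 in the Vgll4l libraries and above the controls in the Yap/Taz libraries, and was called in opposite directions (log2FC -4.85 ± 0.36, adjusted p = 1.4e-08, and log2FC 1.35 ± 0.36, adjusted p = 0.0033). With the close libraries averaged the Yap/Taz call ends (adjusted p = 0.24). sec22a was called lower after Vgll4l knockdown (log2FC -1.48, adjusted p = 0.0012), although replicate 2 overlaps the controls, and was not called after Yap/Taz knockdown (-0.64).

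**Figure D4:**
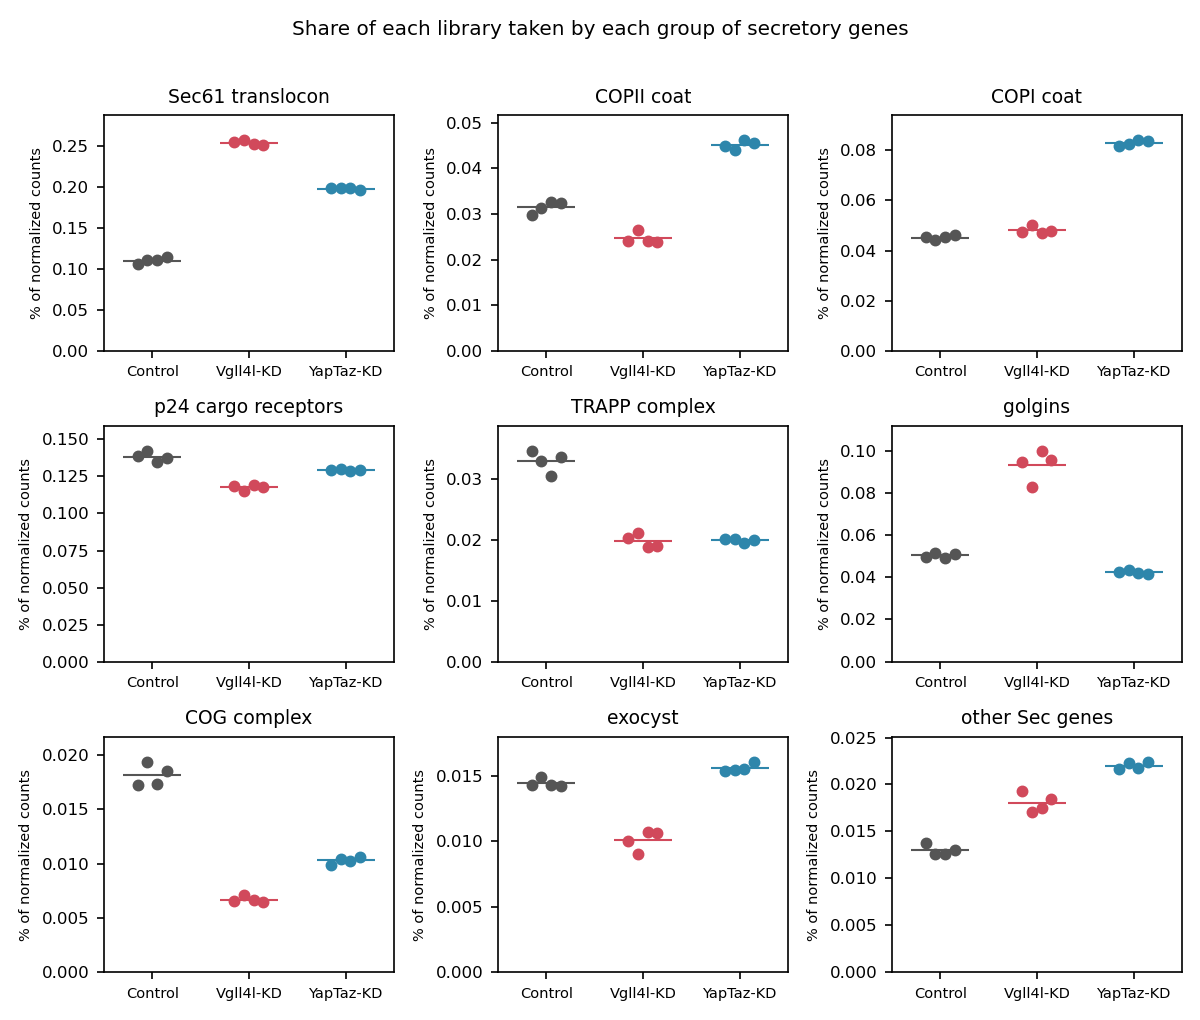
Share of all normalized counts of a library (y axis, percent, each panel from 0) taken by the genes of each role, with points for libraries and lines for group means of 4 libraries. The translocon share lies at 0.106 to 0.114% in Control, 0.251 to 0.257% in Vgll4l-KD and 0.197 to 0.199% in YapTaz-KD, and the COG share is highest in Control.

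Set directly against each other, Vgll4l clusters had 21 secretory genes higher and 26 lower than Yap/Taz clusters, with 29 not called and a median log2 fold change of -0.05 (0 over all genes). These shares of 27.6% and 34.2% were near those of all genes tested, 30% and 33.2%. cog2 (-7.02), sec22bb (-6.20), exoc2 (-5.82, and -6.51 without Vgll4l replicate 2) and exoc3l4 (-5.74) lay far lower in Vgll4l clusters, and cog3 (4.92), cog8 (4.42), golga4 (3.63) and trappc4 (3.56) far higher, all values being log2 fold changes. sec61a1 (1.59) was the only translocon gene called in this comparison. Of 10 COPII genes 4 were lower and 1 was higher in Vgll4l clusters (40% and 10%). Of 13 exocyst genes, counted with the exoc3-like genes, 8 were lower and 3 higher (61.5% and 23.1%).

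Genes of the same pathway that the symbol rule does not take in were read from lists chosen by function. The counts of each list here and in the next paragraph stand beside the shares of all genes tested. These were 30.5% higher and 40.9% lower after Vgll4l knockdown, and 30% and 38.7% after Yap/Taz knockdown. For ER translocation and signal peptidase, 9 of 23 tested genes were higher and 2 lower after Vgll4l knockdown, and 7 were higher and 3 lower after Yap/Taz knockdown. ssr1, a subunit of the translocon-associated protein complex, rose from 103 ± 24.97 to 989.8 ± 176 normalized counts after Vgll4l knockdown (SD, n = 4 each, log2FC 3.26, adjusted p = 1.6e-10) and to 374 ± 16.4 after Yap/Taz knockdown (log2FC 1.87, adjusted p = 5.2e-08). emc1 and emc2, subunits of the ER membrane insertion complex EMC, parted: emc1 fell after Vgll4l knockdown (log2FC -2.09, adjusted p = 9.3e-08) and rose after Yap/Taz knockdown (log2FC 1.39, adjusted p = 7.9e-06), and emc2 rose after Yap/Taz knockdown only (log2FC 4.46, adjusted p = 5.4e-08). tram2, which encodes a partner of the channel, fell after Yap/Taz knockdown from 489.5 ± 25.7 to 69.4 ± 1.52 normalized counts (SD, n = 4 each, log2FC -2.80, adjusted p = 2.2e-12). For regulators of COPII and COPI, 5 of 20 were higher and 4 lower after Vgll4l knockdown, and 8 were higher and 5 lower after Yap/Taz knockdown. This list also holds the coat subunit genes arcn1a and arcn1b. preb, whose product loads Sar1 with GTP and so starts the COPII coat, had 102 ± 5.48 normalized counts in control clusters (SD, n = 4), 622 ± 78.9 in Vgll4l clusters and 304 ± 3.68 in Yap/Taz clusters and rose in both (log2FC 2.59, adjusted p = 8.0e-12 and log2FC 1.57, adjusted p = 9.6e-10). arfgap2, an activator of GTP hydrolysis by Arf1 on the COPI coat, rose after Yap/Taz knockdown (log2FC 5.07, adjusted p = 7.6e-10), and arfgef1, an exchange factor for Arf, fell in both (log2FC -3.93, adjusted p = 2.8e-08 and log2FC -5.58, adjusted p = 7.1e-10). arf3b, an Arf GTPase gene, fell in both as well (log2FC -4.50, adjusted p = 4.6e-06 and log2FC -3.50, adjusted p = 5.8e-05). Its Vgll4l value was -3.89 without Vgll4l replicate 4, and its Yap/Taz call ends with the close libraries averaged (adjusted p = 0.072).

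For SNAREs, other tethers and cargo receptors, 13 of 39 tested genes were higher and 11 lower after Vgll4l knockdown, and 9 were higher and 15 lower after Yap/Taz knockdown. use1, rint1 and nbas encode parts of one machine, which receives COPI vesicles at the ER. use1 had 1.54 ± 1.09 normalized counts in control clusters (SD, n = 4), 409 ± 74.96 in Vgll4l clusters and 90.95 ± 14.5 in Yap/Taz clusters. rint1 had 1.23 ± 1.61, 16.3 ± 7.48 and 463 ± 30.9, and nbas had 149.9 ± 4.97, 120.3 ± 23.7 and 0 in all Yap/Taz clusters. use1 and rint1 thus rose in both knockdowns (log2 fold changes 7.46 and 5.31, and 3.14 and 7.99, adjusted p at most 1.5e-05 in limma), while nbas was at least 275-fold lower after Yap/Taz knockdown and was not called after Vgll4l knockdown (-0.34). cux1a, whose gene can give both a transcription factor and the golgin CASP, fell after Vgll4l knockdown (log2FC -7.23, adjusted p = 2.9e-09, and -7.84 without Vgll4l replicate 2). For ER folding and quality control, 13 of 29 genes were higher and 7 lower after Vgll4l knockdown, and 12 were higher and 9 lower after Yap/Taz knockdown. dnajc3a, a co-chaperone of BiP, had no read in control clusters, 54.4 ± 12.3 normalized counts in Vgll4l clusters and 60.6 ± 3.83 in Yap/Taz clusters, at least 54.5-fold and 60.7-fold higher. uggt1 and uggt2 encode the glucosyltransferase that marks unfolded glycoproteins. uggt2 fell after Vgll4l knockdown from 543 ± 47.9 to 8.73 ± 7.51 normalized counts (SD, n = 4 each, log2FC -6.07, adjusted p = 7.5e-10), and uggt1 fell in both (log2FC -1.77, adjusted p = 2.4e-05 and log2FC -2.01, adjusted p = 7.3e-06). uggt2 was called lower after Yap/Taz knockdown as well (log2FC -1.12, adjusted p = 0.0077), a call that ends with TMM scaling (-0.98) and with the close libraries averaged (adjusted p = 0.31). Among genes of the ER stress response, 6 of 12 were higher and 3 lower after Vgll4l knockdown, and 6 were higher and 2 lower after Yap/Taz knockdown. The 2 kinases that sense unfolded protein went opposite ways. ern1, the gene of IRE1, had 2 reads in control clusters, 104 ± 6.15 normalized counts in Vgll4l clusters and 64.5 ± 2.47 in Yap/Taz clusters, ratios of 157 (43.1 to 1298) and 96.8 (26.6 to 802). eif2ak3, the gene of PERK, fell from 178 ± 26.2 normalized counts to 6.29 ± 3.89 and 58.95 ± 6.54 (log2FC -4.79, adjusted p = 7.8e-09 and log2FC -1.57, adjusted p = 6.2e-04), and the Yap/Taz call ends with the close libraries averaged (adjusted p = 0.15). ddit3, the gene of the stress factor CHOP, had 3 reads in control clusters and 12.1 ± 3.21 and 171 ± 8.79 normalized counts in the knockdowns, ratios of 12.1 (3.92 to 60.4) and 171 (58.5 to 833). mbtps2, a protease that activates stress factors in the Golgi, rose after Vgll4l knockdown (log2FC 1.45, adjusted p = 6.3e-06) and fell after Yap/Taz knockdown (log2FC -3.01, adjusted p = 2.6e-09).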

How the data were processed

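RNA of 12 single dissected forerunner cell clusters was converted to cDNA with a SMART-Seq v4 kit, amplified, and sequenced as 50-bp single-end reads. Per the submitters' processing notes and the study's methods, STAR aligned the reads to GRCz10, featureCounts assigned them to Ensembl genes and DESeq2 normalized them. Versions, and how reads that fit several genes were assigned, are not given in the sources used here, and the libraries do not mark the strand, so near-identical and overlapping genes are uncertain. The deposited values are headed TPM, but the authors' file holds a normalized signal: every value is a whole number of reads divided by the size factor of its library (100% whole within 0.001). Columns of the authors' log2 fold changes and adjusted p-values in the same table hold their own comparisons and were not used.

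The values were tested with limma 3.58.1 (R 4.3.3), with a trended variance, on log2(value + 1), in one fit of all 12 libraries over the 17609 genes with a mean of at least 1. P-values were adjusted by Benjamini and Hochberg over all genes tested, per comparison. A gene was called at an adjusted p under 0.05 and a log2 fold change of at least 1 in either direction. Fold changes on this scale understate those of low genes. For a group without reads, a fold is a lower bound against 3 reads over the group, and for 1 to 3 reads the ratio has an exact 95% interval from the counts. Intervals and floors cover counting error only, since amplified reads are not independent molecules. Precision follows the depth of 4487894 to 11235726 reads per library.

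The labels number the replicates in each group, and same-numbered libraries did not deviate together (correlations of -0.06 to 0.02), so they were not treated as pairs. Members were given values singly by a rule: the largest rises and falls in each role with a mean of at least 50, genes called in opposite directions, copies that parted, and the gene of each role with the highest control mean. This named 43 members, and others given with values were chosen after their values were seen. Pathway genes were the largest rise and fall of each list per knockdown, with the same limit on the mean in the higher group. The members, roles and lists were chosen with earlier results of these data known. Alternatives were other pseudocounts, filters, scalings and fold thresholds, edgeR 4.0.16 and DESeq2 1.42.0 on the recovered reads, a fit of each comparison alone, the replicate number as a block, near-identical libraries averaged into 1 value, and each library left out. edgeR called 12588, 12184 and 11377 genes of all tested in the Vgll4l, Yap/Taz and direct comparisons, and limma 12570, 12100 and 11131. The limma fit was tested on simulated reads for the Vgll4l comparison. There only a small part of the genes was changed, far fewer than were called in the data, so this did not test the scaling. The other steps were not simulated. Sequences were not used here.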

Additional observations from a re-analysis of the deposited data

Results flagged for a closer look

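In 14 of the 207 sets of 4 libraries of a secretory gene (group means of 1 or more normalized counts), one library lay far from the other 3 for their range. Chance alone marks about 1 in 20 such sets. Vgll4l replicate 2, which held more detected genes than the other Vgll4l libraries, was the library concerned in 8 of the 14. It had 5620 normalized counts of sec61b against 4683 to 4829 in the others, 914 of sec63 against 749 to 773, 373 of trappc2l against 326 to 334, and 1715 of tmed9 against 2201 to 2268. For genes that were low after Vgll4l knockdown it had 9.44 of exoc2 against 0 to 0.977, 23.6 of exoc3 against 0 to 1.84, and 20.8 of sec22a against 6.84 to 7.64. It also had 40.6 of sec22ba, a gene not called after Vgll4l knockdown, against 22.2 to 23.04. Vgll4l replicate 3 had 2166 of sec61a1l against 2019 to 2041.

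Among control libraries, replicate 2 had 819 normalized counts of cog3 against 636 to 665, and 108 of cog5 against 136 to 139. Among Yap/Taz libraries, replicate 4 had 360.5 of trappc5 against 332 to 335 and 790.4 of tmed1a against 763 to 767, and replicate 1 had 54.0 of exoc6 against 38.3 to 39.0. The counts of called genes without Vgll4l replicate 2 were 22 higher and 23 lower after Vgll4l knockdown, as with it.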

How the results depend on the processing

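The counts of called secretory genes stayed within 1.5 times the reported ones in each comparison under the alternatives run, except where the fold threshold itself was changed. With an absolute log2FC of at least 2, 27 genes were called after Vgll4l knockdown, 11 of them higher, and 31 between the knockdowns, 11 of them higher, and with no fold threshold 25 were lower after Yap/Taz knockdown, since the threshold sets these counts. A pseudocount of 10 gave 35 called genes after Vgll4l knockdown against 45, without cog1, cog6, copz2, exoc1, exoc4, exoc6, golga7ba, sec22a, tmed1b and TRAPPC9. With each library left out in turn the totals were 44 to 46 after Vgll4l knockdown, 42 to 44 after Yap/Taz knockdown and 45 to 48 between the knockdowns. With the replicate number as a block they were 45, 42 and 46 against 45, 42 and 47, and the labels do not say that a number marks a shared day or clutch. With Control replicates 1 and 2, Control replicates 3 and 4, and the 4 Yap/Taz libraries each averaged to 1 value they were 44, 40 and 41, where the lone Yap/Taz value is assumed to vary like the other groups. Vgll4l replicates 3 and 4, which were also close, stayed separate in that fit. For single genes, 6853 values kept their direction and their side of the threshold, 82 fell under it and 43 came past it. The genes whose sign changed were not called and lay near 0 (absolute log2FC under 0.3), and the cause was not tested. With scaling to the library total these were -0.214 for copa, -0.0563 for sec61b, -0.0712 for sec61g, -0.218 for tmed10, -0.173 for tmed2, -0.229 for tmed5 and -0.00526 for uggt1 between the knockdowns, and -0.0732 for sec23ip, -0.0526 for trappc1, -0.235 for exoc3l1, -0.265 for golga4, -0.206 for sec11a, -0.0495 for tmed2, -0.219 for tmed7 and -0.224 for arfgap2 after Vgll4l knockdown. With TMM scaling these were 0.0305 for cog1 and 0.0106 for copb1 after Yap/Taz knockdown, and 0.0956 for golga1 and 0.0606 for emc2 after Vgll4l knockdown, and 0.0588 for golgb1 between the knockdowns. With edgeR these were 0.0507 for cog1 and 0.0105 for copb1 after Yap/Taz knockdown, and 0.0983 for golga1 after Vgll4l knockdown, and 0.0581 for golgb1 between the knockdowns. With edgeR without a filter these were 0.0569 for cog1 and 0.0165 for copb1 after Yap/Taz knockdown, and 0.114 for golga1 after Vgll4l knockdown, and 0.0671 for golgb1 between the knockdowns. With DESeq2 these were -0.00215 for trappc4 after Yap/Taz knockdown, and -0.0177 for arfgap2 after Vgll4l knockdown. With single libraries left out they ran from -0.328 to 0.0859 for cog1, -0.546 to 0.0235 for cog6, -0.545 to 0.0526 for trappc13 and -0.112 to 0.247 for trappc4 after Yap/Taz knockdown, and from -0.0437 to 0.0906 for copa and -0.0379 to 0.0349 for golgb1 between the knockdowns, and from -0.262 to 0.250 for exoc3l1, -0.282 to 0.383 for exoc8, -0.0466 to 0.0905 for golga4, -0.469 to 0.179 for emc2 and -0.217 to 0.233 for arfgap2 after Vgll4l knockdown. For genes with 0 to 3 reads in a group, depth limits the fold to a bound or a wide interval.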

Other observations

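Lists of other tissue markers gave these counts of tested genes. Over all genes tested, 30.5% were called higher and 40.9% lower after Vgll4l knockdown, and 30% and 38.7% after Yap/Taz knockdown. After Vgll4l knockdown all 6 tested forerunner markers were lower, and after Yap/Taz knockdown 5 were. The 6 include vgll4l, the target of the Vgll4l morpholino. The others encode transcription factors that the paper proposes are regulated by Vgll4l and Yap/Taz. These forerunner counts therefore cannot measure forerunner cell content apart from the knockdowns. For epidermal ectoderm 7 of 10 were higher and none lower after Vgll4l knockdown, and 4 were higher and 3 lower after Yap/Taz knockdown. For neural ectoderm the counts of 12 were 5 higher and 2 lower, and 4 higher and 4 lower. For mesoderm the counts of 12 were 5 higher and 3 lower, and 3 higher and 6 lower. For endoderm, a list that shares sox17 with the forerunner list, the counts of 10 were 6 higher and 2 lower, and 6 higher and none lower. Summed shares of normalized counts did not always follow these counts. In the order control, Vgll4l and Yap/Taz, endoderm took 0.321 to 0.335%, 0.170 to 0.177% and 0.280 to 0.285%. Neural ectoderm took 0.0234 to 0.0276%, 0.0205 to 0.0246% and 0.0415 to 0.0425%. Epidermal ectoderm took 0.0285 to 0.0301%, 0.111 to 0.116% and 0.0318 to 0.0334%. Mesoderm took 0.0956 to 0.101%, 0.143 to 0.145% and 0.0757 to 0.0764%.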
